A study of Mus musculus with 6 samples.

Results

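The genes described here were grouped for roles in forming the fluid-filled cavity of the mouse blastocyst. They are 8 of the 22485 genes named on the array, and they are read by 10 of its 33026 named features. The set was chosen by name, with earlier results of these data known. Atp1b1 and Fxyd6 belong to the sodium pump, Aqp3, Aqp8 and Aqp9 are water channels, and Cldn4, Cldn6 and Cldn7 are claudins of the tight junction. All 8 genes passed the filter on dim features, so none was lost from the comparison.

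Whole B6C3F1 blastocysts were collected on day 5. The embryos had been flushed from the oviducts of superovulated and mated females aged 6 to 8 weeks on day 2 of pregnancy, and were then cultured for 72 hours in CCM-30 medium. In 3 samples the medium held 400 nM of a miR-30d mimic, a synthetic copy of a microRNA that the uterine lining releases. In the 3 control samples it held 400 nM of a scrambled oligonucleotide joined to the dye Alexa 488, called scramble below. There were 30 embryos per condition, and total RNA (50 ng per sample) was amplified, labelled with Cy3 and read on a 1-colour array. Both groups received a synthetic RNA and no sample without one was analysed here, and the dye is named for the scramble alone, so effects of dye and sequence cannot be told apart. Embryos were pooled whole, so fewer cells of a type and less transcript per cell cannot be told apart in any value below.

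The blastocoel forms when the trophectoderm, the outer epithelium of the embryo, moves sodium inward with a basolateral sodium-potassium pump and water follows through aquaporins. Tight junctions between the trophectoderm cells keep the fluid in, and claudins form the sealing strands and selective pores of these junctions. The beta subunit of the pump takes it to the membrane, and small FXYD proteins tune its affinity for ions.

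The label of the samples was checked against 12 markers of the blastocyst's lineages. All 12 were among the genes tested, with log2 signal between 7.24, for Sox2 on scramble replicate 1, and 16, for Krt18 on scramble replicate 3. The trophectoderm keratin gene Krt8 read 14.99, 15.01 and 15.12 with scramble and 14.48, 14.98 and 14.85 with the mimic. Of 24 markers of cumulus, oviduct, sperm, blood, endothelial and stromal cells 13 were tested, and 11 of these were below 8.2 on every array. The exceptions were Foxl2, which read 12.17 to 13.41, and Kdr, which read 9.34 to 11.48. Both readings are those of the brightest feature of the gene. The other Foxl2 feature had a mean of 7.17 over all arrays, and the other Kdr features had means of 6.92 to 7.41. The cut of 8.2 is not a detection limit, and the members Cldn6 and Aqp9 and the embryo marker Sox2 also had readings below it. None of the 13 had an unadjusted p under 0.05 in the model reported here. In the alternative with the replicate number as a block, Kdr had an unadjusted p of 0.027 and an adjusted p of 0.651 in limma.

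The 6 arrays had medians of 7.367 to 7.376. Replicate 1 of each group stood apart. In 609 of the 17399 genes tested, scramble replicate 1 was at least 1 log2 unit above every other array, and mimic replicate 1 was so in 270, against 10 to 71 genes for the other arrays. Differences without both of these arrays are given below for all members and for part of the related genes and markers. Mimic and scramble were compared with limma across all 17399 genes, and p-values were adjusted over all of them by the Benjamini-Hochberg method. None of the 17399 genes (0%) passed an adjusted p of 0.05, the smallest being 0.972, and 3.17% had an unadjusted p under 0.05. Differences are mimic minus scramble on the log2 scale, each with its moderated standard error (SE), and intervals are unadjusted 95% intervals of the difference from the same model. The number of arrays limits the precision.

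Promoter sequences are shown for part of the members, to set them beside the regulators measured on the same arrays. The Aqp8, Aqp3 and Cldn7 windows shown are the only windows of the members with a match to the motifs searched below. The sequences below are the 250 bases before an annotated start of the pair of members whose means were lowest relative to scramble (Fxyd6 and Aqp8), of the aquaporin on the other side of zero (Aqp3) and of a claudin (Cldn7, the first of its starts). They are RefSeq sequences of build GRCm38.p6, written 5′ to 3′ on the gene's strand, and all 8 members had an entry, 10 entries in all. RefSeq's model of Fxyd6 extends upstream of this window. Capitals mark the letters of any of the motifs searched.
Fxyd6, chr9:45369935-45370184, plus strand: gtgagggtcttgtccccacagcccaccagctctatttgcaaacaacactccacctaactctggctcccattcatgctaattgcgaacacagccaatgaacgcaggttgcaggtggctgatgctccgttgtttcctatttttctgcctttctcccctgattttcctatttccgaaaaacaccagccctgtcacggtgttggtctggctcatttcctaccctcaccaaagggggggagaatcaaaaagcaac
Aqp8, chr7:123462044-123462293, plus strand: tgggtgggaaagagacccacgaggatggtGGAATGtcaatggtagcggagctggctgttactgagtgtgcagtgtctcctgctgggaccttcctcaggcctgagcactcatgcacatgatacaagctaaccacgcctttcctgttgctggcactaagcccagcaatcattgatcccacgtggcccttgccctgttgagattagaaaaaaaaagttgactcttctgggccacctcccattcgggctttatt
Aqp3, chr4:41098184-41098433, minus strand: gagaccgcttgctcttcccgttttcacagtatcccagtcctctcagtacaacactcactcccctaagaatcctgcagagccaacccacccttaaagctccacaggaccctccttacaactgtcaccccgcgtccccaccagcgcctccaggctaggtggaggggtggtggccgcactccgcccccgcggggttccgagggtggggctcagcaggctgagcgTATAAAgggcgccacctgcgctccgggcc
Cldn7, chr11:69964529-69964778, plus strand: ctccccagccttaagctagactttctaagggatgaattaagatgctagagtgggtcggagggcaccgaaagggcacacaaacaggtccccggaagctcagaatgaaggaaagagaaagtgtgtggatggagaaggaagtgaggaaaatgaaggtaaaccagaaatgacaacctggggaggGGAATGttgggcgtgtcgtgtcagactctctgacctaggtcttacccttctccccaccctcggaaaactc

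The motifs were searched on both strands in the same 250-base window of all 32851 entries, and no matches overlapped in these members. GGAATG, the letters bound by TEAD factors such as the trophectoderm regulator Tead4, was found in Aqp8, from 221 to 216 bases before the start. In Cldn7 it was found from 70 to 65 bases before the first of its starts. The other Cldn7 start and the windows of Cldn4 and Cldn6 matched none of the motifs. GGAATG occurs in 12.6% of all windows. TATAAA, the TATA box, was found in Aqp3 from 29 to 24 bases before the start and occurs in 12.4%. AACNGGTT of the grainyhead-like factors (1.79% of all windows), GCCNNNGGC of the AP-2 factors (13.7%) and TTTATNG of the caudal factors (9.81%) were found in none of the 10 windows of the members. Tead4, the TEAD factor named here, had a log2 difference of -0.23 (SE 0.17), with an interval from -0.63 to 0.16. Leaving out scramble replicate 1 gave -0.11, leaving out both replicate 1 arrays gave -0.12 and leaving out scramble replicate 3 gave -0.39. A match is a description of letters and not evidence of binding.

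Fxyd6 had the smallest p of the 8 genes, and its groups did not overlap. Fxyd6 encodes a small membrane protein that associates with the sodium pump and alters its affinity for sodium and potassium. Its log2 signal was 11.19, 11.36 and 11.41 in scramble replicates 1, 2 and 3, and 10.64, 10.53 and 10.82 in the mimic replicates. Every mimic array lay below every scramble array. The means were 11.32 ± 0.12 (SD, n = 3) and 10.67 ± 0.15 (SD, n = 3), a log2 difference of -0.65 (SE 0.13), so that the mimic signal was 0.637 times the scramble signal with an interval of 0.516 to 0.786. By unadjusted p (0.000988, limma) Fxyd6 ranked 12 of 17399 genes, and its adjusted p was 0.972. Leaving out single arrays gave differences between -0.73 and -0.58, and it was -0.70 without both replicate 1 arrays.

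Atp1b1 encodes the beta 1 subunit, which the pump needs to reach the basolateral membrane. Its log2 signal was 12.24, 12.47 and 12.12 with scramble and 12.45, 12.26 and 12.14 with the mimic, and the ranges nearly coincide. The means were 12.28 ± 0.17 and 12.28 ± 0.16 (SD, n = 3 each), and the log2 difference was 0.00 (SE 0.14). The interval for the ratio of mimic to scramble was 0.799 to 1.26, so larger differences in either direction lie outside it. The adjusted p was 1 in limma. Whether the differences of Fxyd6 and Atp1b1 themselves differ was not tested.

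**Figure D1:**
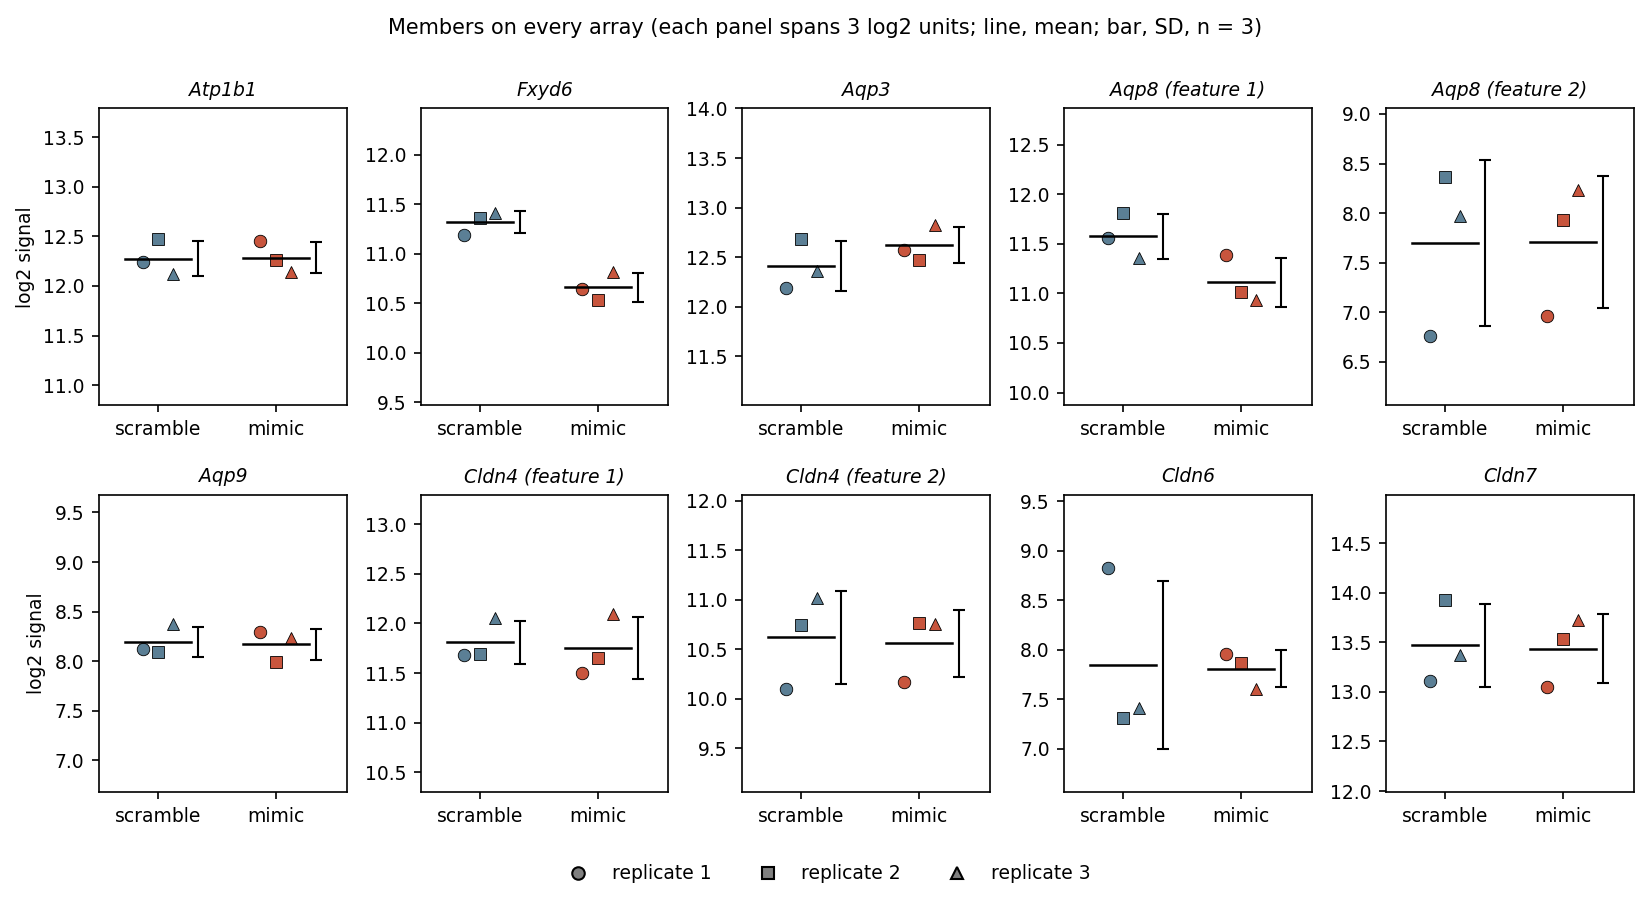
Log2 signal (vertical axis, 3 log2 units in every panel) of the 10 features of the 8 genes in the 3 scramble (blue) and 3 mimic (red) arrays, with the replicate number as the symbol, the mean as a line and the SD as a bar (n = 3). Fxyd6 is the panel in which the groups do not overlap, at 10.53 to 10.82 with the mimic and 11.19 to 11.41 with scramble.

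Of the aquaporin genes, Aqp8 had the lower mimic mean and Aqp3 the higher one, while the means of Aqp9 were 8.19 and 8.17. Aqp8 encodes a water channel that also passes ammonia, and the array reads it with a pair of features. On the brighter feature its log2 signal was 11.56, 11.81 and 11.36 with scramble and 11.39, 11.01 and 10.93 with the mimic. Mimic replicate 1 lay within the scramble range, and the other mimic arrays lay below it. The means were 11.58 ± 0.22 and 11.11 ± 0.25 (SD, n = 3 each), and the log2 difference was -0.47 (SE 0.17), with a mimic signal of 0.723 times the scramble signal (interval 0.552 to 0.946). The adjusted p was 0.972 in limma (unadjusted p 0.0237), and all 3 same-numbered pairs were lower with the mimic, by differences of -0.17, -0.80 and -0.43.

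The dimmer Aqp8 feature gave another picture. It read 6.76, 8.36 and 7.97 with scramble and 6.96, 7.93 and 8.23 with the mimic. Replicate 1 was the lowest array of both groups, and the ranges of the groups overlap widely. The log2 difference was 0.01 (SE 0.48), with an interval from -1.09 to 1.11, which includes the difference of the brighter feature. With the mean of both features, Aqp8 had a difference of -0.23. Without both replicate 1 arrays the brighter feature gave -0.62, and the loss of single arrays gave -0.61 to -0.35.

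Aqp3, an aquaglyceroporin that passes glycerol as well as water, read 12.19, 12.68 and 12.36 with scramble and 12.57, 12.47 and 12.82 with the mimic. The groups overlap, and scramble replicate 2 was above both mimic replicates 1 and 2. The log2 difference was 0.21 (SE 0.17), with an interval for the ratio of 0.89 to 1.50 and an adjusted p of 0.972 in limma. Leaving out scramble replicate 1 gave 0.10, leaving out mimic replicate 3 gave 0.11 and leaving out both replicate 1 arrays gave 0.12, while 0.35 was found without scramble replicate 2.

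Aqp9, the other aquaglyceroporin of the set, read 8.12, 8.09 and 8.37 with scramble and 8.29, 7.99 and 8.23 with the mimic. Its log2 difference was -0.02 (SE 0.27), and the ratio had an interval of 0.641 to 1.52. Differences of up to about that size in either direction are therefore not told from none with these arrays. The adjusted p was 0.999 in limma.

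None of Cldn4, Cldn6 and Cldn7 differed between the groups by more than the spread of the arrays. Cldn4, a claudin that tightens epithelia against ions, is read by a pair of features that gave the same log2 difference of -0.06. The brighter one read 11.68, 11.69 and 12.06 with scramble and 11.50, 11.65 and 12.10 with the mimic. Replicate 3 was the highest in both groups on this feature. The dimmer one read 10.10, 10.74 and 11.02 with scramble and 10.17, 10.76 and 10.75 with the mimic, with replicate 1 the lowest in both groups. For the brighter feature the SE was 0.18 and the interval of the ratio was 0.716 to 1.29 (adjusted p 0.982, limma).

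Cldn7, a claudin found widely in simple epithelia, read 13.11, 13.93 and 13.37 with scramble and 13.05, 13.53 and 13.73 with the mimic. The groups overlap, with replicate 1 the lowest array in both. The log2 difference was -0.03 (SE 0.25), with an interval of the ratio from 0.655 to 1.46 and an adjusted p of 0.993 in limma. The pairs of equal number differed by -0.06, -0.40 and 0.36, so they did not share a sign.

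Cldn6, a claudin of early embryonic epithelia, was the member with the widest interval. It read 8.82, 7.31 and 7.41 with scramble and 7.96, 7.87 and 7.60 with the mimic. Scramble replicate 1 was the highest array and the other scramble arrays were the lowest. The log2 difference was -0.04 (SE 0.43), and the interval of the ratio went from 0.497 to 1.91 (adjusted p 0.998, limma). Without scramble replicate 1 the difference was 0.45, and without both replicate 1 arrays 0.38. Leaving out mimic replicate 3 gave 0.07, so Cldn6 has no settled direction.

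**Figure D2:**
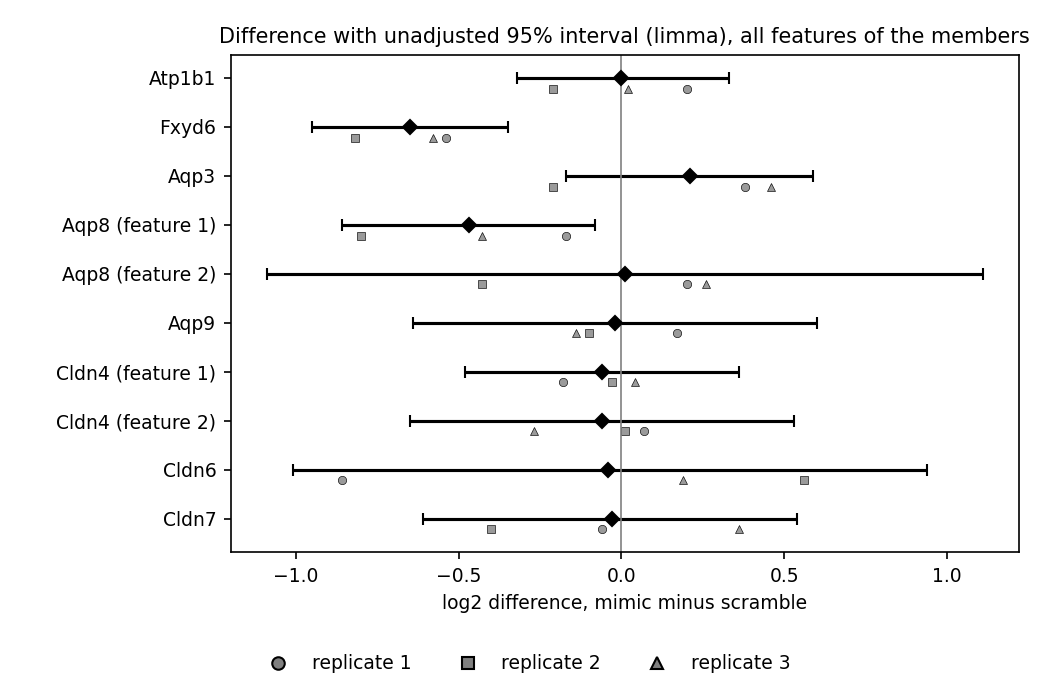
Log2 difference, mimic minus scramble (horizontal axis), for the 10 features, with diamonds for the estimate, bars for the unadjusted 95% interval from limma and grey symbols for the difference within each replicate number. The intervals of Fxyd6 (-0.95 to -0.35) and the brighter Aqp8 feature (-0.86 to -0.08) lie below 0 and the other 8 cross it.

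In all, 0 of the 8 genes passed the adjusted threshold, beside 0% of all genes. The genes with an unadjusted p under 0.05 were 2 of 8, beside 3.17% of all genes, and groups did not overlap in 1 of 8, beside 9.7% of all genes. The set was drawn up when low values of Fxyd6 and Aqp8 in the mimic arrays were already known, so these counts describe the set and support nothing about it. The median log2 difference of the members was -0.04, beside 0.02 over all genes, with 2 members higher and 6 lower. Apart from Fxyd6, Aqp8 and Aqp3, the differences went from -0.06 to 0.00. In an exact two-sided permutation test over the 20 ways to split 6 arrays into 3 and 3, Fxyd6 reached p = 0.1, which is the smallest possible, and the brighter Aqp8 feature p = 0.2. The other features had exact p from 0.4 to 1.

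The genes whose values over the 6 arrays most resembled those of Fxyd6 were Grn, Paqr7 and Ubl5, with Pearson correlations of 0.982, 0.981 and 0.978. Grn, which encodes the secreted precursor progranulin, read 10.38, 10.59 and 10.70 with scramble and 9.72, 9.79 and 10.12 with the mimic. Paqr7, a membrane progestin receptor gene, stayed between 7.04 and 7.33, and Ubl5, which encodes a ubiquitin-like protein, between 11.97 and 12.18. These correlations describe 6 arrays that include the group difference itself, and 12 of 17398 genes exceeded 0.95.

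Related genes of the same pathways were followed in 6 lists of 90 genes, of which 85 were on the array and 74 were tested. Of the 74, 39 were higher and 35 lower, none passed the adjusted threshold, and 5 (6.76%) had an unadjusted p under 0.05, beside 3.17% of all genes. The groups did not overlap in 8 of the 74 (10.8%), beside 9.7% of all genes.

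The list of sodium pump and FXYD genes held 8 tested genes, of which 2 had higher and 6 had lower mimic means (median log2 difference -0.10). Fxyd1 encodes phospholemman, which inhibits the pump until it is phosphorylated. It read 10.44, 10.10 and 10.82 with scramble and 9.38, 9.80 and 9.64 with the mimic, and every mimic array was below every scramble array. Its log2 difference was -0.84 (SE 0.21), with an unadjusted p of 0.00348 and an adjusted p of 0.972 in limma. Leaving out single arrays gave -1.02 to -0.66.

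Fxyd4, another pump modulator, had a log2 difference of -0.19 (SE 0.13), and Atp1b3, which encodes the beta 3 subunit, had 0.29 (SE 0.17). Their intervals, -0.49 to 0.10 and -0.11 to 0.68, include 0. Without scramble replicate 2 Fxyd4 had -0.12. The other tested FXYD genes did not share a direction, with 0.47 (SE 0.34) for Fxyd3, 0.00 (SE 0.19) for Fxyd2, -0.38 (SE 0.40) for Fxyd5 and -0.29 (SE 0.29) for Fxyd7. Without mimic replicate 1 Fxyd3 had 0.20, and without both replicate 1 arrays 0.09, while without scramble replicate 3 Fxyd5 had 0.03 and Fxyd7 0.05. These last 4 were named to complete the family after their values were seen.

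Among 8 tested ion carriers, channels and their kinase Sgk1, 5 had higher and 3 had lower mimic means (median 0.02). Sgk1, a kinase that promotes sodium transport in epithelia, read 12.06, 11.97 and 12.09 with scramble and 11.55, 11.77 and 11.64 with the mimic. The groups do not overlap, and the log2 difference was -0.39 (SE 0.12), with an unadjusted p of 0.0105 and an adjusted p of 0.972 in limma. Single arrays left out gave -0.45 to -0.33. Scnn1b, a subunit gene of the epithelial sodium channel, had 0.55 (SE 0.34), which was 0.09 without both replicate 1 arrays, and the anion exchanger gene Slc4a2 had -0.25 (SE 0.25), which was -0.08 without scramble replicate 1.

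**Figure D3:**
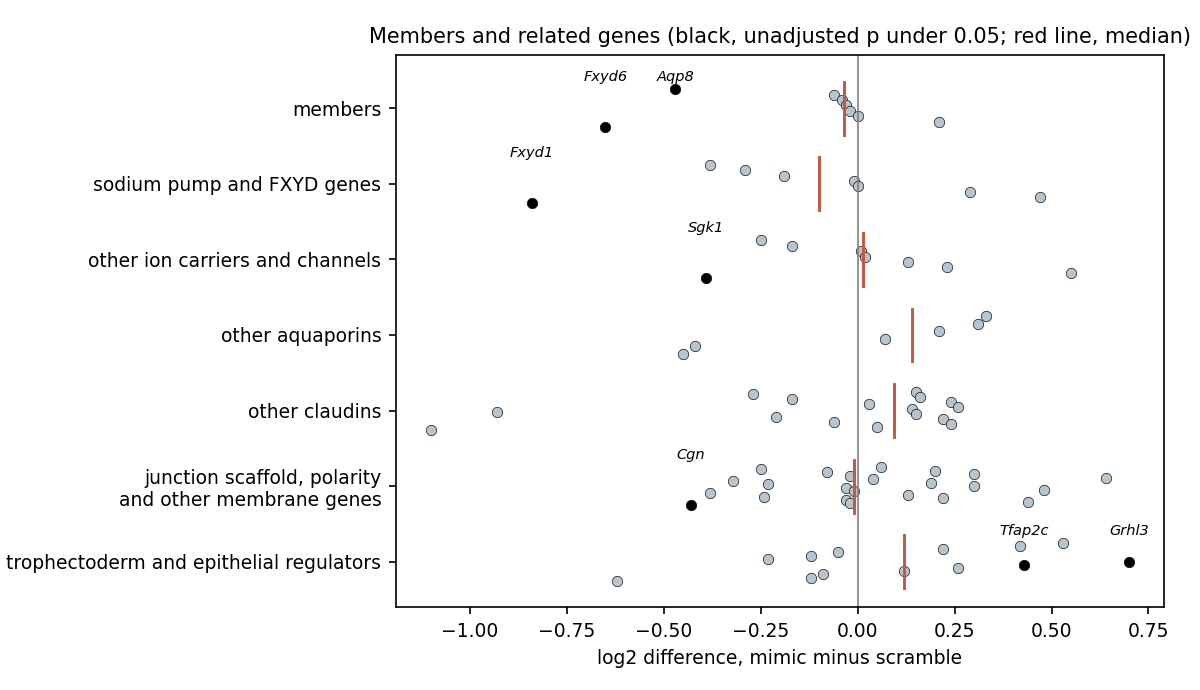
Log2 difference, mimic minus scramble (horizontal axis), of the 8 members and of the tested genes of the 6 related lists (1 row each; the vertical scatter within a row has no meaning), with the list's median as a red line and genes of unadjusted p under 0.05 in black and named. The medians lie between -0.10 and 0.14, and the 7 black points are split between negative (Fxyd6, Aqp8, Fxyd1, Sgk1 and Cgn) and positive (Grhl3 and Tfap2c) differences.

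In the junction scaffold, polarity and membrane list 11 of 23 tested genes had higher and 12 had lower mimic means (median -0.01). Cgn encodes cingulin, which ties the junction plaque to the actomyosin ring. It read 11.54, 11.44 and 11.40 with scramble and 10.88, 11.07 and 11.15 with the mimic, without overlap. The log2 difference was -0.43 (SE 0.13), with an unadjusted p of 0.00868 and an adjusted p of 0.972 in limma. Leaving out single arrays gave -0.49 to -0.35, and leaving out both replicate 1 arrays gave -0.30.

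Prkci, the atypical protein kinase C gene of apical polarity, had a log2 difference of 0.30 (SE 0.15), but 0.15 when scramble replicate 1 and 0.13 when both replicate 1 arrays were left out. Marveld3, a gene of junctional membrane proteins, had 0.48 (SE 0.30), and 0.27 without both replicate 1 arrays. Tjp1, which encodes the scaffold ZO-1, had 0.04 (SE 0.15) and the junctional adhesion molecule gene F11r had -0.01 (SE 0.16). Both were named for their roles after their values were seen. Their intervals were -0.31 to 0.39 and -0.39 to 0.36.

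The other claudins gave 10 of 16 higher and 6 lower, with a median of 0.10, which was 0.02 without both replicate 1 arrays. Cldn3, a sealing claudin, read 11.11, 10.93 and 11.16 with scramble and 11.27, 11.15 and 11.48 with the mimic, where mimic replicate 2 lay below scramble replicate 3. Its log2 difference was 0.24 (SE 0.14), and 0.14 without mimic replicate 3. Cldn17, an anion-selective claudin, read 7.12, 7.04 and 7.03 with scramble and 7.35, 7.29 and 7.28 with the mimic, without overlap, at 0.24 (SE 0.15; unadjusted p 0.149 and adjusted p 0.972, limma). Its mean over all arrays, 7.18, was just above the cut of 7.16 for dim features. Cldn20 had -1.10 (SE 0.62), which came from a reading of 9.70 on scramble replicate 1, and it had -0.26 without that array. The other aquaporins had 4 of 6 higher and 2 lower, with a median of 0.14. Mip, the water channel gene of the lens, had 0.31 (SE 0.21), Aqp4 had -0.45 (SE 0.34) and Aqp6 had -0.42 (SE 0.37). Without scramble replicate 1 they had 0.11, -0.08 and 0.02.

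Of 13 trophectoderm and epithelial regulators 7 had higher and 6 had lower mimic means, with a median of 0.12 that was -0.09 without both replicate 1 arrays. Grhl3, a grainyhead-like factor of epithelial barriers, read 7.35, 7.49 and 7.15 with scramble and 8.40, 7.93 and 7.76 with the mimic, without overlap (log2 difference 0.70, SE 0.28). Its difference was 0.52 without mimic replicate 1 and 0.53 without both replicate 1 arrays. Tfap2c, the AP-2 factor of the trophectoderm, read 11.79, 11.87 and 12.07 and then 11.97, 12.59 and 12.47, and mimic replicate 1 lay within the scramble range (0.43, SE 0.18). Elf5, a factor of trophoblast stem cells, had 0.53 (SE 0.24), and 0.33 without scramble replicate 1. Their unadjusted p-values were 0.035, 0.0395 and 0.0518, and all 3 had an adjusted p of 0.972 in limma. With the replicate block Elf5 had an unadjusted p of 0.00145 and an adjusted p of 0.373 in limma. Lower values with the block were not particular to Elf5. Of all genes, 552 had an unadjusted p under 0.05 without the block and 1260 with it.

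Values of the lineage markers stand beside these results. Cdx2, the caudal factor that defines the trophectoderm, had a log2 difference of -0.62 (SE 0.28) with an interval from -1.25 to 0.01, and -0.33 without mimic replicate 1. With the replicate number as a block Cdx2 had an unadjusted p of 0.00492, against 0.0536 without it, and an adjusted p of 0.506 in limma. Krt8 had -0.27 (SE 0.21), or -0.15 without both replicate 1 arrays, Krt18 -0.05 (SE 0.26) and Gata3 -0.09 (SE 0.13). Of the 5 trophectoderm markers 4 were lower and Tfap2c was higher. Of the inner cell mass markers Sox2 had 0.51 (SE 0.34) and Nanog -0.34 (SE 0.17), each without overlap, and Pou5f1 had 0.25 (SE 0.31). Without both replicate 1 arrays they had 0.12, -0.18 and -0.16. The Sox2 groups met at 8.23 as rounded, on scramble replicate 3 and mimic replicate 2, and scramble replicate 1 read 7.24. The dimmer Nanog feature (mean 9.21) had a difference of 0.13 over all arrays. In the primitive endoderm Sox17 had 0.40 (SE 0.20), Gata4 0.34 (SE 0.19), Pdgfra 0.04 (SE 0.22) and Gata6 -0.16 (SE 0.13), and the first 2 had 0.22 and 0.19 without both replicate 1 arrays. The Pdgfra value is that of its brightest feature (mean 9.26). The next feature of Pdgfra (mean 9.17) gave -0.21, and its remaining features, with means down to 8.55, gave 0.33 to 0.75. The part of these markers in the values of Fxyd6 and Aqp8 was not tested.

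**Figure D4:**
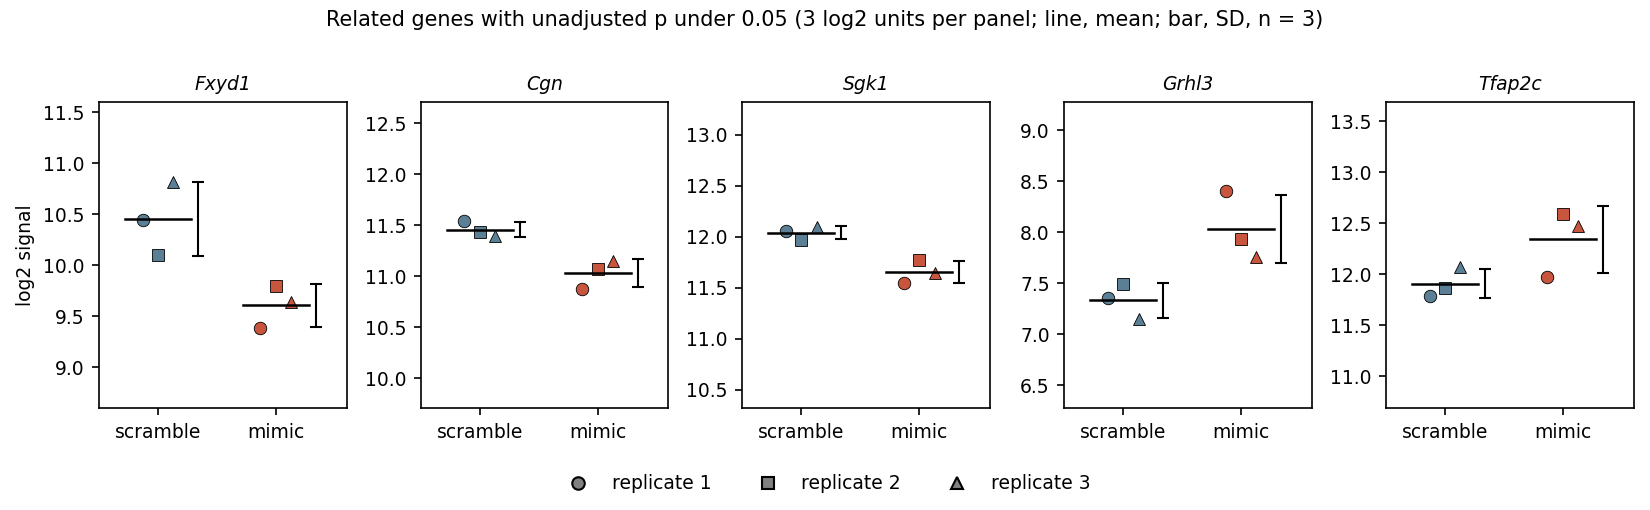
Log2 signal (vertical axis, 3 log2 units in every panel) of the 5 related genes with an unadjusted p under 0.05 in the 3 scramble (blue) and 3 mimic (red) arrays, with the replicate number as the symbol, the mean as a line and the SD as a bar (n = 3). Fxyd1, Cgn and Sgk1 are lower and Grhl3 higher in every mimic array, and for Tfap2c mimic replicate 1, at 11.97, lies within the scramble range of 11.79 to 12.07.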

How the data were processed

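The authors deposited 1 table of log2 signal for 45220 features on 6 arrays. The scale was read from the values, and the sources used here do not state how the arrays were scanned, corrected and normalized. Arrays brought to a common scale cannot show a change shared by most genes. The platform annotation gave 33026 features 1 gene symbol, and symbols were updated by Entrez identifier (32438 features, RefSeq GRCm38.p6). The sample titles give the groups and replicate numbers. They call the replicates biological but do not say whether matings or days differed, so the p-values cover only the spread of these samples, which may be partly technical.

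The lowest 25% of named features by mean over all arrays (below 7.16) were left out, and the brightest feature stood for each gene. The comparison used limma 3.58.1 (R 4.3.3; lmFit, eBayes with a trend, two-sided, Benjamini-Hochberg over 17399 genes, threshold 0.05). Values of a second feature come from the same model over 24769 features. The model was tested on simulated data. The simulated arrays were independent, without likeness by replicate number or an array that stood apart, so the test does not cover these traits. The members and lists were chosen with earlier results of these data known. All members are named, and the 3 genes of smallest unadjusted p in each related list. The 3 genes most like the member of smallest p are named too.

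After subtraction of the group means, arrays of equal number correlated at 0.328, 0.349 and 0.204 for replicates 1, 2 and 3, all over 0.1. Scramble replicate 2 with mimic replicate 3 (0.185) and scramble replicate 3 with mimic replicate 2 (0.124) were over 0.1 too. The threshold therefore does not separate replicates 2 and 3, and pairing by number is an assumption. The correlations are read from the data, and the labels state no pairing. The model without the block is the one reported. Figures were drawn with matplotlib 3.10.9.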

Additional observations from a re-analysis of the deposited data

How the results depend on the processing

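The alternatives were the replicate number as a block, 2 other filters on dim features, the mean of a gene's features, eBayes without a trend, 2 other scalings, and arrays left out. With the replicate block 1 gene and 1 feature passed, neither of them a member, and the block changed no call of a member (lowest adjusted p 0.339, Fxyd6). Under every other alternative run, 0 genes, 0 features and 0 members passed in limma. The genes with an unadjusted p under 0.05 numbered 552 in the reported model and 1260 with the block. The median of the members lay between -0.12 and -0.04 when single arrays were left out and was -0.03 with the arrays centred on the 75th percentile.

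Fxyd6, Aqp8 and Aqp3 kept their direction under all 14 alternatives, and Fxyd6 went from -0.73 to -0.58. The 5 members near 0 changed sign only when arrays were left out. Over the single arrays left out Atp1b1 ranged from -0.08 to 0.10, Aqp9 from -0.08 to 0.07, Cldn4 from -0.23 to 0.07, Cldn6 from -0.30 to 0.45 and Cldn7 from -0.22 to 0.20. Without both replicate 1 arrays Atp1b1 had -0.10, Aqp9 -0.12, Cldn4 0.00 (on the positive side), Cldn6 0.38 and Cldn7 -0.02. The cause was not tested. No detection flags were used here, so the dim Cldn6, Aqp9, Cldn17, Grhl3 and second Aqp8 features have no known detection limit. Their log2 differences can understate larger ones.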

Other observations

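Scramble replicate 1 held isolated bright readings among dim junction and channel genes. Cldn19, a claudin gene, read 10.37 on that array and 7.06 to 7.41 on the others, and its log2 difference of -0.93 (SE 0.78) was 0.14 without it. Cldn23 read 8.70 there and 7.20 to 7.74 elsewhere. The same array read Ocln, the occludin gene of the tight junction, at 8.24 against 8.90 to 9.84 on the others, and the log2 difference of Ocln was 0.44 (SE 0.38) with it and 0.04 without it. These genes were chosen after their values were seen, and none passed the adjusted threshold in limma.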
